A study of Saccharomyces cerevisiae with 4 samples.

Results

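Trehalose metabolism and the supply of UDP-glucose in budding yeast were described through 10 genes, listed by name and function. They were TPS1, TPS2, TPS3 and TSL1 of trehalose synthesis, the trehalases NTH1, NTH2 and ATH1, the phosphoglucomutases PGM1 and PGM2, and UGP1. The platform annotation gave each of the 10 genes its own symbol and 1 probeset, out of 5449 S. cerevisiae genes measured. BEM2 carries TSL1 as an old alias and was left out, since another probeset bears TSL1 as its symbol.

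Transcripts were measured on 4 Affymetrix arrays of S. cerevisiae BY4741, a haploid strain of mating type a used in the laboratory that carries auxotrophic deletions. Cells growing exponentially in YPD, a rich glucose medium, received vehicle (2 control cultures) or 50 μM CG-1521, an inhibitor of histone deacetylases (2 cultures), for 1 h. The control and treated groups thus shared strain, medium and time, and differed in CG-1521 alone as far as the labels say. The labels call the replicates independent biological ones, they come from 1 strain, and the vehicle is not named in them.

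Trehalose is a disaccharide of glucose that yeast stores, and it protects proteins and membranes under heat and drought. Cells make it from glucose 6-phosphate and UDP-glucose, and the same UDP-glucose feeds glycogen, cell wall glucan and protein glycosylation. Phosphoglucomutase turns glucose 6-phosphate into glucose 1-phosphate, and the UDP-glucose pyrophosphorylase Ugp1 turns that into UDP-glucose. Synthesis and breakdown enzymes are both known to be induced in stress, and the stress activators Msn2 and Msn4 drive many of these genes, while protein kinase A opposes Msn2 and Msn4 and activates the neutral trehalase.

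All values are RMA values, the authors' background-corrected and quantile-normalized log2 signal of a probeset, so 1 unit is a doubling of signal. Array medians over the 5449 genes lay between 9.82 and 9.89. Background, taken as the 95th percentile of 1746 probesets for another yeast species on the array, lay between 2.42 and 2.45, and all 10 genes were above it on all 4 arrays. Among the markers of strain and mating type, MET17 and URA3, both deleted in BY4741, were below background on every array. HIS3, of which the strain lacks only a part, was far above background, at 10.76 and 10.91 on the control arrays and 10.25 and 10.21 on the treated ones, and it fell (-0.60, adjusted p = 0.0217). LEU2, also deleted, stayed between 2.08 and 3.09, and was called as a rise there (adjusted p = 0.0488). The a-cell genes MFA1, MFA2, STE2 and BAR1 had group means between 11.06 and 12.05. Of these STE2 fell (-0.79, limma adjusted p = 0.0285), and MFA1, MFA2 and BAR1 were not called. The alpha-cell genes MF(ALPHA)1 and STE3 were above background on every array too, at values between 2.73 and 5.17. MF(ALPHA)1 fell (-0.75, limma adjusted p = 0.0377), and STE3 was not called. Hybridization spikes, control RNAs added before hybridization, had medians of 12.24 and 12.00 on the CG-1521 arrays and 11.41 and 11.83 on the control arrays. Poly-A spikes, which control for labelling, overlapped between the groups, with medians of 9.54 and 8.89 on the CG-1521 arrays and 8.71 and 9.22 on the control arrays. The part of the spikes in the results was not tested.

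With CG-1521, 5 of the 10 genes rose, PGM1 fell, and 4 did not pass. The threshold was an adjusted p of 0.05 in limma's moderated test, with Benjamini-Hochberg adjustment over all 5449 genes. By that rule 29.7% of all genes were called, 12.9% as higher and 16.8% as lower. The median log2 fold change over the 10 genes was 0.74, beside a median of -0.04 over all genes. Both CG-1521 values lay above both control values for 7 of the 10 genes and below them for 2, beside 31.4% and 40.9% of all genes, so 9 of the 10 did not overlap, beside 72.3% of all genes. The 5 that rose were TSL1, PGM2, TPS1, TPS2 and NTH1, so synthesis, breakdown and precursor supply each held a gene that rose.

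**Figure D1:**
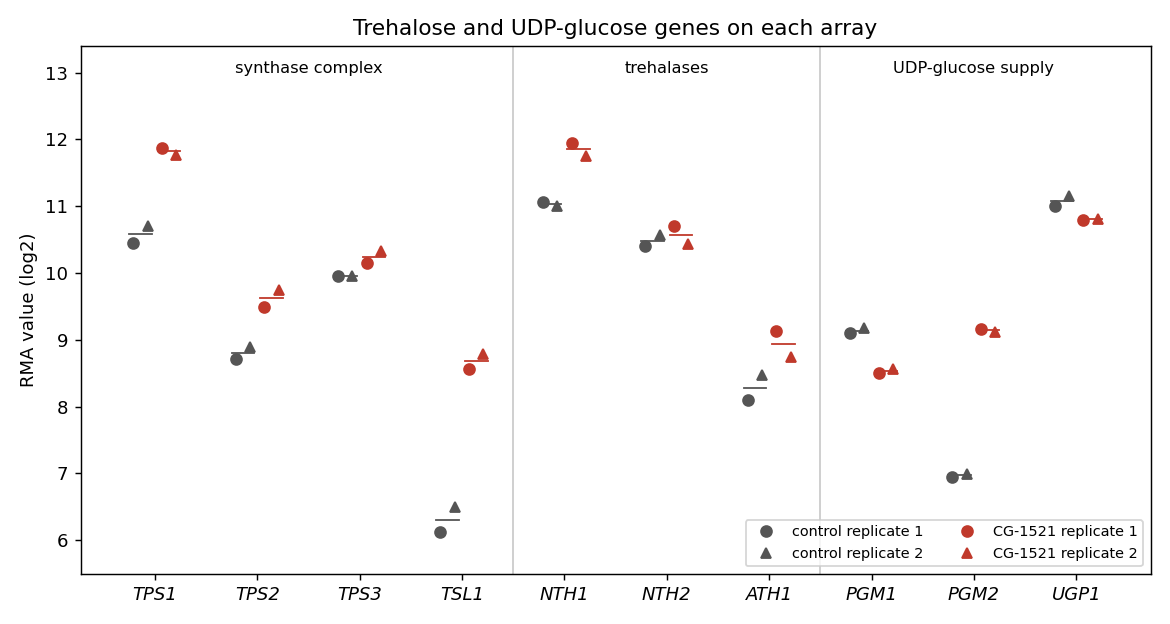
RMA value (log2) of each gene on each array, with controls in grey, CG-1521 in red, circles for replicate 1, triangles for replicate 2 and short lines for group means. NTH2 is the only 1 of the 10 genes whose groups overlap; levels of different genes are not comparable, since probesets differ in response.

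TPS1 encodes trehalose 6-phosphate synthase, the catalytic subunit that joins glucose 6-phosphate to UDP-glucose. Its values were 10.45 and 10.70 on the control arrays and 11.87 and 11.77 on the CG-1521 arrays. The groups did not overlap, and the gap between them was several times the gaps within them. TPS1 rose 2.37-fold, from 10.58 ± 0.18 to 11.82 ± 0.07 (SD, n = 2 each). This is a change of 1.25 in log2 units (SE 0.13, adjusted p = 0.00935 in limma), and TPS1 ranked 169 from the top among all genes.

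TPS2 encodes the phosphatase that removes the phosphate of trehalose 6-phosphate and so completes synthesis. It stood at 8.71 and 8.89 in the control cultures and at 9.49 and 9.75 with CG-1521, with no overlap. TPS2 rose 1.77-fold, by 0.82 in log2 units (SE 0.14, adjusted p = 0.0199 in limma). The rises of TPS1 and TPS2 kept their direction when an array was left out, but both calls ended when either control array was left out. Most calls over all genes ended in those fits too. Without control replicate 1 the log2 fold change was 1.12 for TPS1 and 0.73 for TPS2. It was 1.37 and 0.91 without control replicate 2.

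TSL1 and TPS3 are paralogs that encode the 2 large regulatory subunits of the complex, which bind and stabilise it. TSL1 had values of 6.12 and 6.50 in the control cultures and of 8.57 and 8.79 with CG-1521. Both treated arrays lay more than 2 units above both controls. This was the largest change among the 10 genes, a 5.18-fold rise or 2.37 in log2 units (SE 0.17, adjusted p = 0.00741 in limma), and it ranked 22 from the top among all genes. The call held in all 12 alternative settings, though narrowly when a control array was left out. TPS3 stood at 9.96 and 9.96 in the control cultures and at 10.15 and 10.32 with CG-1521. Both treated values were above both controls, but the log2 fold change of 0.28 (95% interval -0.01 to 0.57, limma adjusted p = 0.122) did not pass.

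Set against each other within each array, TSL1 minus TPS3 went from -3.84 and -3.46 on the control arrays to -1.58 and -1.53 with CG-1521. The difference shifted by 2.09 towards TSL1, with SDs of 0.27 and 0.03 within the groups (n = 2 each). An exact two-sided permutation test over the 4 arrays gave p = 0.333 for this and for both other paralog pairs. That is the smallest value 2 against 2 arrays can give, so no pair could pass this test. The levels of paralogs are read by different probes, and only the shift between groups can be interpreted.

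**Figure D2:**
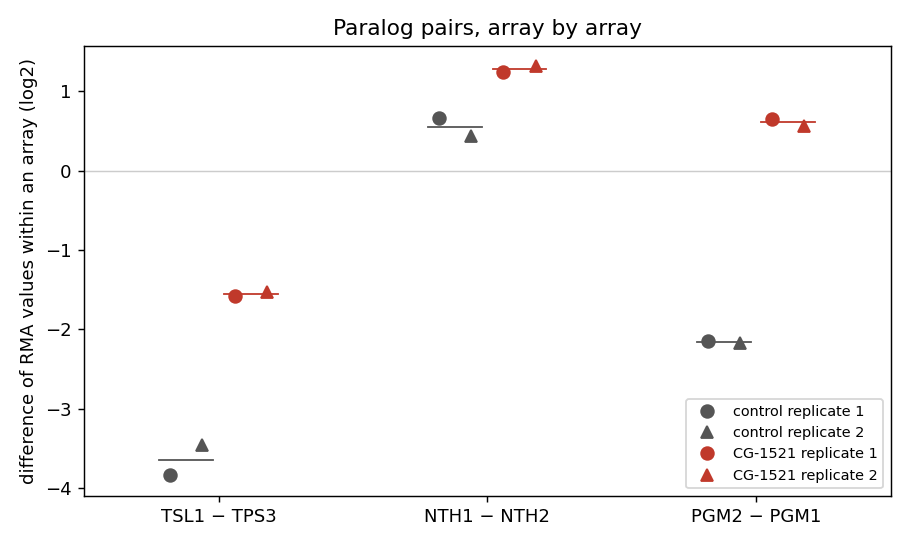
Difference of RMA values (log2) between paralogs within each array, for TSL1 minus TPS3, NTH1 minus NTH2 and PGM2 minus PGM1, with controls in grey, CG-1521 in red and short lines for group means. All 3 differences are higher on both CG-1521 arrays than on both controls, by 2.09, 0.72 and 2.77 in the means.

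NTH1 encodes the main neutral trehalase of the cytosol, which splits stored trehalose into glucose and is switched on by protein kinase A and the 14-3-3 proteins Bmh1 and Bmh2. Its values were 11.07 and 11.01 in the control cultures and 11.95 and 11.76 with CG-1521. The groups were well apart, at 11.04 ± 0.04 and 11.85 ± 0.14 (SD, n = 2 each). NTH1 rose 1.76-fold, by 0.81 in log2 units (SE 0.12, adjusted p = 0.0144 in limma). The call ended when either control array was left out, as did most calls over all genes. The log2 fold change was 0.85 without control replicate 1 and 0.78 without control replicate 2.

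NTH2, the paralog of NTH1, did not pass. It stood at 10.40 and 10.57 in the control cultures and at 10.71 and 10.44 with CG-1521, so the groups overlapped. The log2 fold change was 0.09 (95% interval -0.28 to 0.46, limma adjusted p = 0.641), and without CG-1521 replicate 1 it was -0.044. NTH1 minus NTH2 was 0.67 and 0.44 on the control arrays and 1.24 and 1.31 with CG-1521, a shift of 0.72 (SD 0.16 and 0.05, n = 2 each).

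ATH1 encodes the acid trehalase, which acts outside the cytosol and is needed to use trehalose from the medium. It had 8.09 and 8.47 in the control cultures and 9.14 and 8.75 with CG-1521. The groups did not overlap, but the gaps within them, 0.38 and 0.39, were wider than the gap between the nearest control and treated arrays. The log2 fold change of 0.66 (95% interval 0.13 to 1.18, limma adjusted p = 0.0678) did not pass over all genes, though its unadjusted interval left out 0. It passed without CG-1521 replicate 2 (log2 fold change 0.85, adjusted p = 0.0362), where the higher treated array alone remained.

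PGM2 encodes the major phosphoglucomutase, also known as GAL5 for its need in galactose use. Its values were 6.95 and 6.99 in the control cultures and 9.16 and 9.13 with CG-1521. Replicates lay within 0.05 of each other in both groups, and the groups were more than 2 units apart. PGM2 rose 4.49-fold, by 2.17 in log2 units (SE 0.10, adjusted p = 0.00676 in limma), and ranked 30 from the top among all genes. Its call held in all 12 alternative settings, as did that of TSL1, and here too narrowly when a control array was left out.

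PGM1, the minor phosphoglucomutase and paralog of PGM2, moved the other way. It stood at 9.10 and 9.17 in the control cultures and at 8.51 and 8.56 with CG-1521. Both treated arrays were below both controls, and replicates were close in each group. PGM1 fell 1.52-fold, a log2 fold change of -0.60 with an SE of 0.10 (adjusted p = 0.0186 in limma). Its call too ended when either control array was left out, as did most calls over all genes. The log2 fold change was -0.64 without control replicate 1 and -0.57 without control replicate 2. PGM2 minus PGM1 went from -2.15 and -2.18 on the control arrays to 0.65 and 0.57 with CG-1521, a shift of 2.77 (SD 0.02 and 0.06, n = 2 each). This was the largest shift of the 3 paralog pairs, and the only pair in which 1 gene rose and the other fell.

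UGP1, the essential pyrophosphorylase that makes UDP-glucose, did not pass. It had 11.01 and 11.15 in the control cultures and 10.79 and 10.81 with CG-1521. Both treated values were lower, by less than the rise of any gene that passed. The log2 fold change was -0.28 (95% interval -0.56 to -0.0015, limma adjusted p = 0.111). Between PGM2 and the synthase TPS1, which both rose, the enzyme in the middle of the route therefore had no call in either direction.

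**Figure D3:**
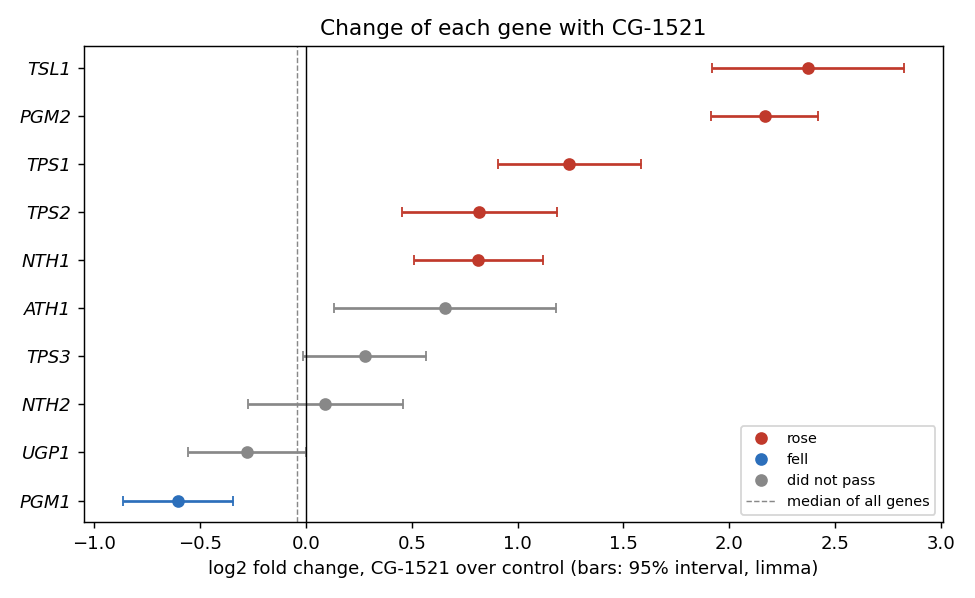
Log2 fold change of CG-1521 over control for each gene (points) with its 95% interval from limma (bars), in red for genes that rose, blue for PGM1, which fell, and grey for those that did not pass. TSL1 (2.37) and PGM2 (2.17) stand apart from the other 8, and the dashed line is the median of all genes (-0.04).

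In order of log2 fold change the genes ran TSL1, PGM2, TPS1, TPS2, NTH1, ATH1, TPS3, NTH2, UGP1 and PGM1. Of the 9 neighbouring pairs in this order, 8 had overlapping 95% intervals, so the order within each of those pairs is not settled. PGM2 and TPS1 were the exception, with intervals of 1.92 to 2.42 and of 0.91 to 1.58. Genes further apart in the order could be separate, as TPS1 was from TPS3 (-0.01 to 0.57) and from PGM1 (-0.86 to -0.35). Within the control group 9 of the 10 genes were lower on replicate 1 than on replicate 2, by up to 0.38 for TSL1, and NTH1 was the exception. Over all genes 1936 of 5449 were higher on control replicate 1. The CG-1521 arrays were split, with 5 genes higher on replicate 1. Replicates of these genes were a median of 0.19 apart with CG-1521 and 0.15 apart in control, beside 0.17 and 0.11 over all genes.

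Enzymes around glucose 6-phosphate and glycogen were followed through lists chosen by function. Over all genes 12.9% were called higher and 16.8% lower, with a median change of -0.04. Of 6 enzymes at the entry and branches of glucose 6-phosphate, 4 rose, 0 fell and 2 did not pass, and the median change was 1.49 in log2 units. The glucokinase GLK1 rose by 2.58 (SE 0.15), its paralog EMI2 by 1.70 (SE 0.11), hexokinase HXK1 by 1.96 (SE 0.28) and ZWF1, which opens the pentose phosphate pathway, by 1.29 (SE 0.13). The main hexokinase HXK2 (-0.07, adjusted p = 0.719) and the isomerase PGI1 (-0.07, adjusted p = 0.607) did not pass, and were named after their values were seen. Among 7 glycogen enzymes 6 rose and 0 fell, with a median of 1.43. The glycogen synthases GSY2 and GSY1 rose by 1.82 and 1.75, and so did the phosphorylase GPH1, by 1.82, and the branching enzyme GLC3, by 1.36. As in trehalose metabolism, genes of synthesis and of breakdown both rose. Without control replicate 1 the first list had 2 calls, and the glycogen list had 2 calls when either control array was left out.

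Other enzymes that use or make nucleotide sugars were counted in 3 lists, against a background of 29.7% of all genes called. Of 5 further users of UDP-glucose, GSC2, a subunit of glucan synthase, rose by 1.40 (SE 0.10), and ALG5, which makes the glucose donor of protein glycosylation, fell by 0.68 (SE 0.09). The other 3 did not pass. They were FKS3 (-0.41, limma adjusted p = 0.0514), the sterol glucosyltransferase ATG26 (0.36, limma adjusted p = 0.192) and FKS1 (-0.15, limma adjusted p = 0.344). FKS1 was named after its values were seen, and the list's median was -0.15. In the galactose route to glucose 1-phosphate, GAL10 rose by 0.66 (SE 0.14, adjusted p = 0.0315), while GAL1 (-0.41, adjusted p = 0.0522) and GAL7 (0.68, adjusted p = 0.0635) did not pass. GAL10 and GAL7 were dim in control, with means of 4.88 and 4.29. Among 7 enzymes of the other nucleotide sugars 1 fell, the mannose 6-phosphate isomerase PMI40 (-0.98, SE 0.15), and 0 rose, with a median of -0.08. When either control array was left out 0 genes of these 3 lists were called, and the GAL10 call also ended without CG-1521 replicate 1. Of 4 alpha-glucoside transporters, which include the trehalose carrier MAL11, 3 were measured and 0 were called by limma, though 1 was without CG-1521 replicate 2. MAL31 stood at 0.25 (limma adjusted p = 0.229), MPH2 at 0.23 (limma adjusted p = 0.284) and MAL11 at 0.41 (limma adjusted p = 0.37). In this list 0 genes had an unadjusted limma p under 0.05.

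**Figure D4:**
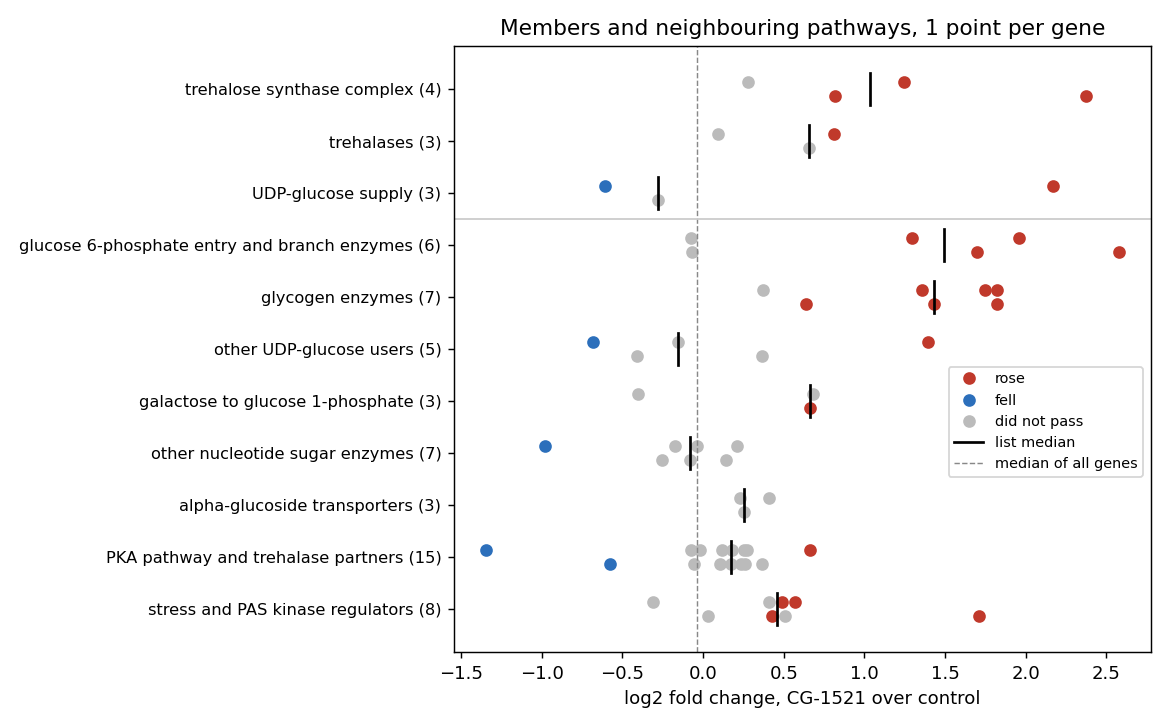
Log2 fold change of CG-1521 over control for each measured gene (1 point) of the 3 groups of trehalose and UDP-glucose genes and of 8 lists of related function, with the number measured in brackets. Red points rose, blue points fell, grey points did not pass, black bars are list medians, and the dashed line is the median of all genes (-0.04).

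Regulators of the pathway were counted in 2 lists, against a background of 12.9% of all genes called higher and 16.8% lower. In the protein kinase A pathway with the 14-3-3 partners of trehalase, 15 of 16 listed genes were measured, and 1 rose, 2 fell and 12 did not pass. The median change was 0.18. RGS2, which turns off the glucose-sensing G protein Gpa2, fell by 1.35 (SE 0.23), and RAS1, an activator of adenylate cyclase, fell by 0.57 (SE 0.12). GPA2 itself rose by 0.66 (SE 0.16, adjusted p = 0.0406). The kinase subunit TPK2 (0.36, adjusted p = 0.0582) did not pass. Of 8 stress and PAS kinase regulators 4 rose and 0 fell, with a median of 0.46. YAK1, a kinase that works against protein kinase A, rose by 1.71 (SE 0.29), and its treated arrays were far apart, at 11.16 and 10.32. PSK1, a PAS kinase that phosphorylates Ugp1, rose by 0.49 (SE 0.10), HSF1, the heat shock activator, by 0.57 (SE 0.12), and GIS1 by 0.43 (SE 0.11). MSN2 (0.41, limma adjusted p = 0.0828) and MSN4 (0.51, limma adjusted p = 0.0663) did not pass. PSK2, the other PAS kinase of the list, did not pass either (-0.31, limma adjusted p = 0.139), with both treated arrays below both controls. MSN2, MSN4 and PSK2 were named after their values were seen. When either control array was left out 0 genes of these 2 lists were called, and the GPA2 call also ended without CG-1521 replicate 1.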

How the data were processed

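The authors deposited 1 log2 value per probeset and array, made with Affymetrix Expression Console and RMA per the submitters' processing notes, whose versions are not given in the sources used here. RMA forces the arrays to a common distribution, which hides any shift shared by all transcripts. Of 10928 probesets, 5498 matched R64 genes through gene identifiers. Where 47 genes had more than 1 probeset, the brightest by its 4-array mean stood for the gene, which left 5449 genes.

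Groups and replicate numbers came from the sample titles. The main test was limma 3.58.1 (R 4.3.3; lmFit, then eBayes without trend or block), two-sided, with 2 residual and 2.69 prior degrees of freedom and a median SE of 0.12; precision is limited by having 4 arrays. As far as the labels say, same-numbered arrays shared only a number, and whether they shared a day is not given. All members were named, with up to 4 genes of smallest p and any called gene needed from each list, the markers, and the 3 genes nearest in pattern to the member with the largest rise and the largest fall. Members and lists were chosen with earlier results of these data known, so they support no pattern independently. Alternatives were a replicate block, each array left out, all probesets, an intensity trend, median centring and repeated quantile normalization. Others were a filter on dim genes, probeset means and a crosswise pairing of replicate numbers, which was chosen after the data were seen. Together they made 12 settings. The filter and the probeset means left the values of the 10 genes as they were, so they could hardly change their calls.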

Additional observations from a re-analysis of the deposited data

How the results depend on the processing

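The calls of TSL1 and PGM2 held in all 12 alternative settings, and those of TPS1, TPS2 and NTH1 ended only without a control array. With the replicate number as a block, 369 genes were higher and 450 lower, PGM1 lost its call (adjusted p = 0.0556) and 0 members fell. There 0 genes of the galactose list and 0 of the protein kinase A list rose, 1 of the latter fell, and 1 of the stress regulators rose. Deviations of same-numbered arrays correlated at -0.26, and pairing the numbers crosswise, chosen after seeing the data, called 842 genes higher and 978 lower, 6 and 1 of them members, with 2 galactose genes higher. With all probesets fitted together 334 genes were higher and 444 lower, 0 galactose genes and 0 kinase A genes were higher, 1 kinase A gene was lower, and 1 stress regulator was higher.

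ATH1 passed under an intensity trend (adjusted p = 0.0464), median centring (adjusted p = 0.0489), repeated quantile normalization (adjusted p = 0.0463) and the crosswise pairing (adjusted p = 0.0208). Galactose genes called higher were 0 under the trend, 2 under median centring and 0 under repeated quantile normalization, and both of the latter called 2 other UDP-glucose users lower. With 1 array left out NTH2 ranged from -0.044, a reversal without CG-1521 replicate 1, to 0.23.

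With 1 array left out, between 50 and 1001 genes were higher and between 16 and 1133 lower. Members called were 2 to 6 higher and 0 to 1 lower. Calls of higher genes ranged from 2 to 4 for glucose 6-phosphate enzymes, 2 to 6 for glycogen, 0 to 2 for UDP-glucose users, 0 to 2 for galactose, 0 to 1 for alpha-glucoside transporters, 0 to 2 for kinase A and 0 to 3 for stress regulators. Lower genes ranged from 0 to 1 for UDP-glucose users, galactose and other nucleotide sugars, and from 0 to 2 for kinase A. Each fit with 1 array left out had 1 residual degree of freedom, beside 2 in the main test. The fits with a replicate block, straight or crosswise, had 1 as well. Counts over all genes were lowest in the fits without a control array. The cause of these changes was not tested. With 1 array left out the paralog shifts ranged from 1.91 to 2.28 for TSL1 minus TPS3, 0.61 to 0.84 for NTH1 minus NTH2 and 2.73 to 2.82 for PGM2 minus PGM1. Repeated quantile normalization gave 2.001, 0.76 and 2.76, and the other settings leave these shifts as they are by construction.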

Other observations

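By pattern over the 4 arrays, the genes nearest to TSL1 were RTS3, FMP23 and the polyubiquitin gene UBI4. Likeness was the root mean square difference after each gene's control mean was subtracted, which was 0.18, 0.19 and 0.21. These 3 genes changed by 2.28, 2.17 and 2.12 on the log2 scale, against 2.37 for TSL1. Nearest to PGM1 were LOC1, MRX12 and CDC43, at 0.01, 0.02 and 0.02, with log2 fold changes of -0.63, -0.61 and -0.61, against -0.60 for PGM1. These are descriptions over 4 arrays, without a test.

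On the chromosome, in the gene order of the R64 annotation, 18 of the 20 immediate neighbours of the 10 genes were measured. Of these 1 rose, 5 fell and 12 did not pass, so 33.3% were called, beside 29.7% of all genes. The neighbour of PGM2 that lies across its upstream region on the other strand, YMR105W-A, fell by 0.86 (SE 0.16, limma adjusted p = 0.024), while PGM2 rose by 2.17. YRB1, which lies so beside NTH1, stood at -0.22 (limma adjusted p = 0.227), while NTH1 rose by 0.81. The neighbour that rose was YMR262W (0.56, limma adjusted p = 0.0497), which lies so beside TPS3, and TPS3 did not pass. Both genes beside TSL1 did not pass, ARG81 at -0.10 and YML100W-A at 0.72 (SE 0.33). Neighbours were named after their values were seen.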
